A study of Mus musculus with 12 samples.

Results

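The liver response to a high-fat diet in mice given low-dose penicillin was read from 6 arrays of the 12 in the series: 3 livers from penicillin-treated mice on the high-fat diet and 3 from penicillin-treated mice kept on chow. All 12 mice were male C57BL6J, and livers were collected at 30 weeks of age. Penicillin was given in the drinking water at 6.7 mg/L in both groups compared, so the groups compared differ in diet, and every difference is given as high-fat minus chow. The chow held 13.5% of its energy as fat, and the high-fat diet (D12451) held 45% from 17 weeks of age. The other 6 arrays came from mice that received no antibiotic, 3 on each diet, and are called control mice. Each array is 1 mouse liver, labelled as a biological replicate. Cages and litters are not given in the labels, so each p-value is set against the spread of these mice only.

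On a fat-rich diet the liver takes up fatty acids, esterifies them into triglyceride and stores the triglyceride in cytoplasmic droplets coated by perilipins and CIDE proteins. Fatty acids are also ligands of PPAR alpha, a nuclear receptor that switches on fatty acid oxidation and ketone production. A separate programme makes the mouse liver differ between the sexes: the pulsatile growth hormone of males maintains male-biased genes through STAT5B, and more continuous growth hormone maintains female-biased ones. Xenobiotic receptors (CAR, PXR and AhR) control many of the cytochrome P450 genes that clear drugs, steroids and bile acids.

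RNA was measured on Affymetrix 3' arrays with 45101 probe sets. Values are the deposited RMA log2 expression values, in which a difference of 1 is a doubling, and each gene symbol is represented by the probe set with the highest mean. Of 18193 genes, 13788 passed a filter on low values (3 or more arrays above log2 5.0, the 40th percentile) and were tested. RMA sets the arrays to a common distribution, so a change in total RNA per liver is not visible, and differences of dim genes are compressed. The hepatocyte genes Alb (14.98 to 15.05) and Ttr (14.78 to 14.89) were near the top of the log2 scale on all 12 arrays. Correlations between arrays ranged from 0.985 to 0.995 within groups and from 0.977 to 0.987 between the diets. Some arrays stood apart. The 18S control probe sets averaged 11.76 to 11.81 on penicillin chow 2, penicillin chow 3 and penicillin high-fat 2, and 12.67 or more on the other 9 arrays. Penicillin chow 1 had the highest acute-phase score (1.24 above the mean of the 12 arrays on the log2 scale, against 0.34 or less elsewhere). Penicillin high-fat 1 had the lowest clock score (-1.52, against -0.68 to 0.68), in which Per and Dbp phase genes are set against Bmal1 phase genes. Many of the results that rest on these arrays are given with and without them. The part of 18S signal, acute-phase level and clock phase in the results was not tested beyond those values.

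High-fat feeding changed 1147 genes in the penicillin-treated mice (limma, Benjamini-Hochberg adjusted p under 0.05), which is 8.32% of those tested. Of these, 886 were higher on the high-fat diet (6.43%) and 261 lower (1.89%), so that 77.2% of the changed genes rose. With array medians centred the split was 713 higher and 393 lower, or 64.5% higher. The groups of 3 did not overlap for 1130 of the 1147 genes, and they did not overlap for 28% of all genes tested. Most changes were modest: the median fold was 1.45, 488 genes changed at least 1.5-fold, and 128 changed at least 2-fold, 105 of them upward. At least 4-fold changes numbered 21, of which 18 were increases. The first principal component of the 6 arrays held 49.2% of the variance and placed the chow livers at -20.5 to -16.3 and the high-fat livers at 13.6 to 23.6. The number of changed genes rested partly on single livers. It was 530 without penicillin high-fat 1, which kept 512 of the 1147, and 743 without penicillin chow 3. Fitting only the 6 arrays compared, so that the control arrays gave no part of the spread, left 482.

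The 15 largest increases included a cytochrome P450, a lipid droplet gene and a peroxisomal oxidase that were near the lower end of the scale on chow. Cyp2b9, a female-biased steroid and drug hydroxylase, read 5.95, 4.80 and 5.30 in the chow livers and 9.69, 10.88 and 11.18 in the high-fat livers. It rose by 5.23 ± 0.51 (log2, SE, n = 3 against 3), or 37.6-fold, with a limma adjusted p of 2.66e-04. Cidea, a droplet protein of brown fat that appears in fatty liver and drives droplet fusion, read 4.42, 5.13 and 5.03 on chow and 9.73, 8.14 and 9.79 on high-fat. Its difference was 4.36 ± 0.38 (limma adjusted p = 9.53e-05). The 15 largest changes in each direction and the 10 smallest p-values were taken from called genes whose groups did not overlap. Lack of overlap in these genes was therefore set by that choice. The chow readings of Cyp2b9 and Cidea (4.42 to 5.95) lay around the filter value, where differences are compressed. Hao2, a peroxisomal hydroxyacid oxidase with female-biased expression, was even within groups: 4.64, 4.25 and 4.46 on chow and 7.74, 7.85 and 7.58 on high-fat. Its difference of 3.27 ± 0.15 gave the smallest adjusted p among the named genes (limma, 1.54e-06).

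Other large increases came from transport, glycogen and signalling genes. Slc22a27 and Slc22a29, organic anion transporter genes that lie near each other on chromosome 19, rose by 3.22 ± 0.17 and 3.45 ± 0.25 (limma adjusted p = 2.74e-06 and 2.27e-05). Slc22a27 read 5.02, 5.13 and 4.94 on chow and 8.48, 8.09 and 8.16 on high-fat. The probe sets of both transporters, of Apoa4 and of Vldlr, and the further probe sets of Cyp2b10, are of the design classes that can hybridise to related transcripts, so paralogs may share signal. Ppp1r3g, a glycogen-targeting subunit of protein phosphatase 1, rose by 3.30 ± 0.40 from readings of 4.53 to 4.71 on chow. Rgs16, a regulator of G protein signalling that responds to feeding state in liver, rose by 3.11 ± 0.41. Defb1 (an epithelial defensin) and Wfdc2 (a secreted whey acidic protein family member) rose by 2.57 ± 0.29 and 2.25 ± 0.22. The probe set assigned to Rad51b, a DNA repair gene, rose by 4.38 ± 0.44. A dimmer probe set of Rad51b (mean 4.02, under the filter value) differed by -0.10. The increase thus rests on 1 probe set and is not settled for the gene.

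The 2 largest decreases were in genes of steroid metabolism and glucuronidation. Hsd3b5, a male-specific hepatic steroid reductase, read 11.70, 12.88 and 12.87 on chow and 7.15, 9.57 and 8.96 on high-fat. Its difference was -3.92 ± 0.50 (limma adjusted p = 0.00118), and every high-fat liver lay more than 2 log2 units below the lowest chow liver. Ugt2b38, a male-biased glucuronosyltransferase, read 10.19, 9.67 and 10.07 on chow and 5.71, 7.13 and 6.73 on high-fat, a difference of -3.46 ± 0.38 (limma adjusted p = 5.78e-04). In both genes penicillin high-fat 1 was the lowest of all the livers, and without it the differences were -3.22 and -3.05. Lifr, the receptor of leukaemia inhibitory factor, read 11.68, 11.58 and 11.99 on chow and 9.64, 9.74 and 9.86 on high-fat. It fell by 2.0 ± 0.12 (limma adjusted p = 4.1e-06), while its other probe sets differed by -0.54 and -0.58. C8b, a chain of the terminal complement complex, differed by -1.72 ± 0.17, and Cadm4, a cell adhesion molecule, by -1.66 ± 0.17. The other genes among the 15 largest decreases were the carboxylesterases Ces2a and Ces2b, the P450 genes described below, Serpina9, Gm16551 and 3110082I17Rik. Of the 30 genes with the largest changes, 28 kept their call whichever of the 12 arrays was removed, while 3110082I17Rik passed in 9 of those fits and Ces2b in 10.

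**Figure D1:**
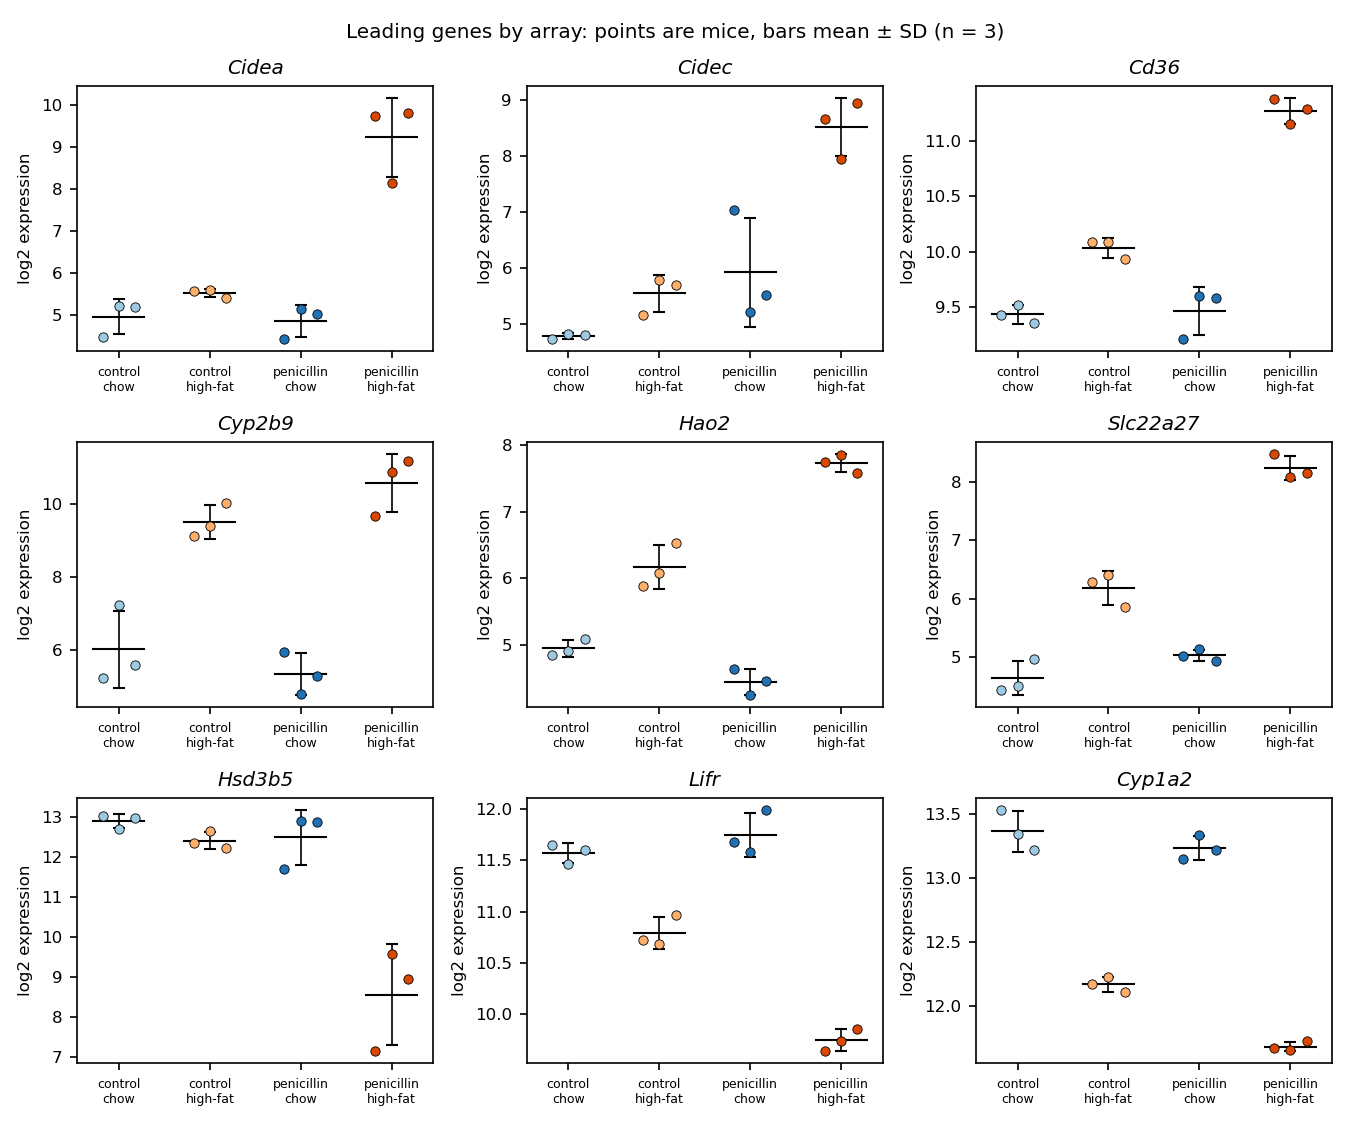
Log2 expression of 9 genes (vertical axes) in the 4 groups, 1 point per mouse, with the mean and SD of 3 mice. The genes were chosen among those whose penicillin high-fat and penicillin chow mice do not overlap. In penicillin-treated mice Cidea read 8.14 to 9.79 on high-fat against 4.42 to 5.13 on chow. Hsd3b5 read 7.15 to 9.57 against 11.70 to 12.88.

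Pairs of nearby genes, each with 7 annotated genes between them, moved in opposite directions, and 4 promoter windows are printed to show the sequences of such pairs. Cyp2b9 rose by 5.23 while Cyp2b10, the classic CAR-induced member of the same P450 subfamily on chromosome 7, fell by 1.51. Hsd3b5 fell by 3.92 while Hao2, on the same strand of chromosome 3, rose by 3.27. Each window holds 300 bases, most of them before the annotated start in RefSeq (GRCm38.p6): Cyp2b9 at chr7:26173159-26173458 on the plus strand, Cyp2b10 at chr7:25897408-25897707 on the plus strand, Hsd3b5 at chr3:98645485-98645784 on the minus strand and Hao2 at chr3:98893181-98893480 on the minus strand. All are printed 5' to 3' in the direction of transcription, and capitals mark a match to the D-box letters TTATGNAA, the motif of the PAR bZIP factors such as Dbp, on the strand printed (Hao2) or the opposite strand (Cyp2b10).
Cyp2b9: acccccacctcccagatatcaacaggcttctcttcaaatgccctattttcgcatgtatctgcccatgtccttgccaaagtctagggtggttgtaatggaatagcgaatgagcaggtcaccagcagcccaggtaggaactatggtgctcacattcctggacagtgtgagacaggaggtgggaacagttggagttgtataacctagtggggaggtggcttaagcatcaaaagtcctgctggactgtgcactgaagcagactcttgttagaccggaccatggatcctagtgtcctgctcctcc
Cyp2b10: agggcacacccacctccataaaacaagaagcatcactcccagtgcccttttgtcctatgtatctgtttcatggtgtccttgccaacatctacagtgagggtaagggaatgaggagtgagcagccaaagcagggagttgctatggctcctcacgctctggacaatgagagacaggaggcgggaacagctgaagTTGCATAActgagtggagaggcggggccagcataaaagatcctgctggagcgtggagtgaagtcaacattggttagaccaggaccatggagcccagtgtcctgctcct
Hsd3b5: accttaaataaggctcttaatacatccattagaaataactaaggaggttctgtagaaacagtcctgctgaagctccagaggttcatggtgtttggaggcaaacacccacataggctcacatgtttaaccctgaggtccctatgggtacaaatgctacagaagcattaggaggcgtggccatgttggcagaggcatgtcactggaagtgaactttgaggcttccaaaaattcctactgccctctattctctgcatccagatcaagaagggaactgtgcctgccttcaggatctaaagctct
Hao2: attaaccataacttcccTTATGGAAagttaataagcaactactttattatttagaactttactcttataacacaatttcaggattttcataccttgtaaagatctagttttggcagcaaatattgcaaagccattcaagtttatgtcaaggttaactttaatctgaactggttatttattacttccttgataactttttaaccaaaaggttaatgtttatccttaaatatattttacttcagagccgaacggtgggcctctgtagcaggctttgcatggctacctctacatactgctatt
The Cyp2b9 and Cyp2b10 windows were 72.9% identical over their alignment, against 51.3% for the Hsd3b5 and Hao2 windows. The D-box letters were found in the Cyp2b10 and Hao2 windows, which belong to a gene that fell and a gene that rose, and not in the other windows printed. Over all windows matched (11097 of the 13788 tested genes), 2.58% held those letters on either strand, against 1.95% for the genes that rose and 3.67% for those that fell. The STAT5 letters TTCNNNGAA were in 8.35% of the windows of all tested genes, 6.97% of those that rose and 8.72% of those that fell, and in none of the 4 windows printed. TATAAA was in 17.0% of the windows of genes that fell, 9.48% of those that rose and 9.84% of all. These matches are descriptions of letters within the windows and not of binding.

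Genes of fat storage moved upward. Of 14 lipid droplet genes tested, 7 rose and none fell, with a median log2 difference of 0.46 against -0.01 over all genes tested. Besides Cidea, they were Cidec, Plin4, G0s2, Plin5, Plin3 and Hsd17b13. Among all genes tested 6.43% rose and 1.89% fell. Cidec, the partner of Cidea in droplet fusion, read 7.04, 5.22 and 5.51 on chow and 8.66, 7.93 and 8.94 on high-fat, a difference of 2.59 ± 0.39 (limma adjusted p = 0.00308). Penicillin chow 1 was the high chow liver. Plin4, a perilipin of forming droplets, differed by 2.13 ± 0.35, with readings of 6.52 to 6.71 on chow and 7.88 to 9.51 on high-fat. G0s2, the inhibitor of adipose triglyceride lipase, differed by 1.23 ± 0.21. Plin5, which links droplets to mitochondria, and Plin3, the most widely expressed perilipin, rose by 0.63 and 0.51. Plin2, the main perilipin of the hepatocyte, differed by 0.30 (limma adjusted p = 0.30) and did not pass. The count of 7 was 6 or 7 in every fit that left out 1 array and 7 with the 3 arrays of low 18S signal left out.

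Of 10 genes of intracellular lipolysis, Mgll (monoglyceride lipase, 0.66) and Lipa (lysosomal acid lipase, 0.70) rose and Lipe (hormone-sensitive lipase, -0.64) fell. The shares over all genes tested were 6.43% higher and 1.89% lower. The count of rises was 1 without penicillin chow 1, without penicillin chow 3 or without penicillin high-fat 1. Pnpla2, which encodes adipose triglyceride lipase itself, differed by -0.21 (limma adjusted p = 0.149).

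Of 16 genes of fatty acid uptake and binding, 4 rose and none fell, with a list median of 0.13. Among all genes tested 6.43% rose and 1.89% fell. Cd36, the scavenger receptor that takes up long-chain fatty acids, read 9.21, 9.60 and 9.59 on chow and 11.38, 11.15 and 11.29 on high-fat. It rose by 1.81 ± 0.11, or 3.50-fold (limma adjusted p = 5.15e-06), and its other probe sets differed by 1.88 and 2.13. Vldlr, the very low density lipoprotein receptor, rose by 2.41 ± 0.24 from readings of 4.56 to 4.95, and its 5 other probe sets, all dim, differed by 0.08 to 1.97. The fatty acid binding protein genes Fabp2 and Fabp4, known from intestine and from adipocytes and macrophages, rose by 1.64 ± 0.16 and 1.35 ± 0.23. Without penicillin high-fat 2, 1 gene of the list fell.

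Of 18 genes of glycerolipid synthesis, 6 rose and none fell (median 0.17), among them Mogat1, a monoacylglycerol acyltransferase, by 1.89 ± 0.21 (limma adjusted p = 5.05e-04). Lpin1 and Lpin2, which encode phosphatidate phosphatases, rose by 1.60 ± 0.38 and 0.70 ± 0.17, and the glycerol-3-phosphate acyltransferase genes Gpam and Gpat2 by 0.82 and 0.64. The sixth was Gpat3, and 6.43% of all genes tested rose. This count depended on each of the 6 livers compared: it was 1 without penicillin high-fat 1, 2 without penicillin chow 1 or chow 3, and 3 without penicillin chow 2, high-fat 2 or high-fat 3.

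Of 20 genes listed under de novo lipogenesis, which include elongases and desaturases, 6 rose and none fell (median 0.41). Among all genes tested 6.43% rose and 1.89% fell. The genes of the list that rose included those of fatty acid elongation and desaturation (Elovl5 by 0.94, Elovl2 by 0.60, Fads2 by 0.63 and Fads1 by 0.51). The others were malic enzyme (Me1, 0.93) and liver pyruvate kinase (Pklr, 0.60). The core enzymes of palmitate synthesis did not pass: Fasn differed by 0.65 (limma adjusted p = 0.23), Acaca by 0.41 and Acly by 0.42. The count was 3 without penicillin chow 1 and 3 without penicillin high-fat 2, and 1 gene fell without control chow 2 or without control chow 3. Of 21 genes of cholesterol synthesis and uptake 16 had negative differences and the median was -0.30, but only Stard4, a sterol transfer protein, fell (-0.63, limma adjusted p = 0.0488, with overlap of the groups). Stard4 passed in 3 of the 12 fits that left out 1 array: those without control high-fat 1, penicillin chow 1 or penicillin high-fat 2. Without any 1 of control chow 2, control chow 3, control high-fat 1, control high-fat 3 or penicillin high-fat 2, 1 gene of the list rose.

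**Figure D2:**
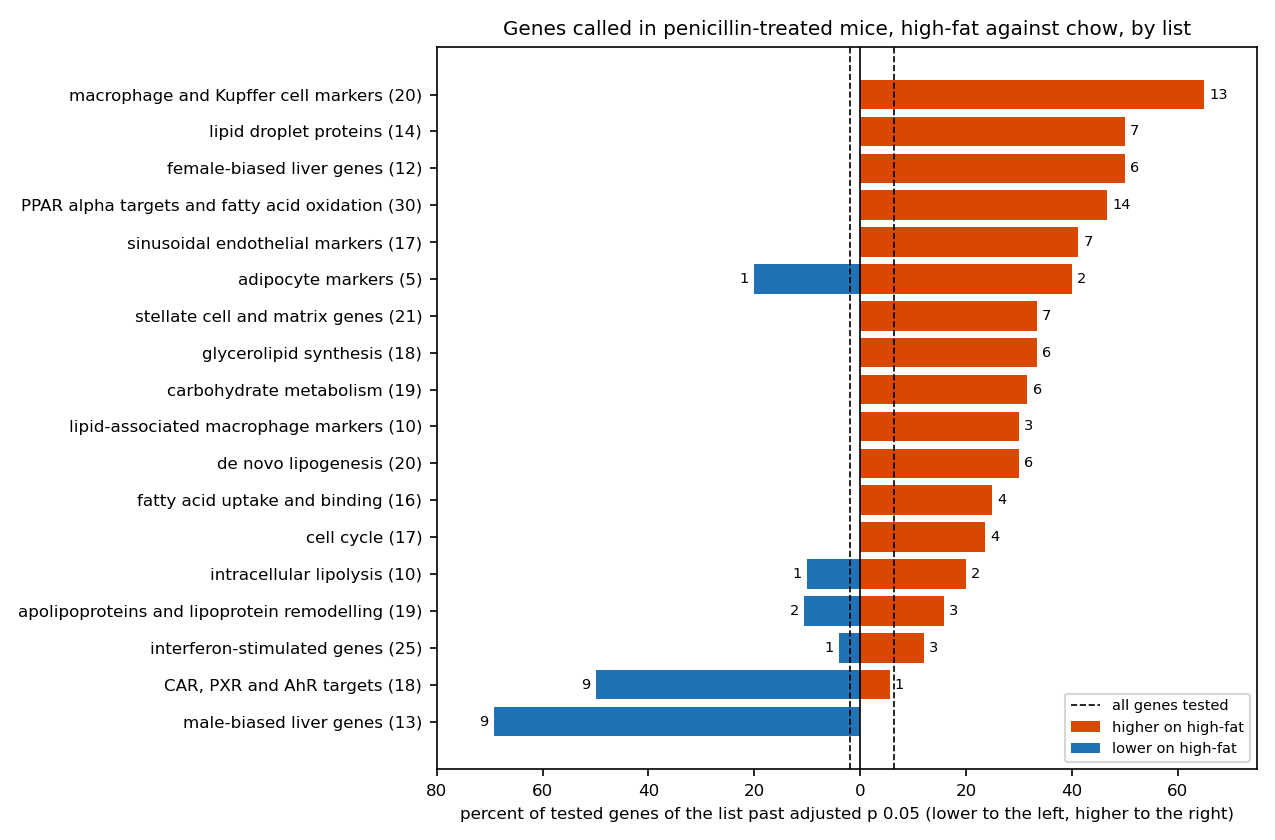
Percent of the tested genes of each list that rose (right) or fell (left) on the high-fat diet in penicillin-treated mice, with the number of genes at the end of each bar and the number tested in parentheses. Dashed lines mark the shares over all genes tested, 6.43% higher and 1.89% lower, and only lists with at least 3 changed genes are drawn.

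Apolipoprotein genes moved both ways. Apoa4, an intestinal and hepatic apolipoprotein of triglyceride-rich particles, read 12.35, 10.06 and 10.50 on chow and 13.38, 13.27 and 13.76 on high-fat, a difference of 2.50 ± 0.43 (limma adjusted p = 0.0056). Penicillin chow 1 again read above the other chow livers, and without it the difference of Apoa4 was 3.19. It was 1.22 without the 3 arrays of low 18S signal, where penicillin chow 1 was the only chow liver left. Apoc2, the cofactor of lipoprotein lipase, rose by 0.90 ± 0.10, and the sterol exporter Abcg1 by 0.67. Abca1, the exporter that lipidates nascent HDL, fell by 0.57, and Apom, an HDL apolipoprotein, fell by 0.40, so that of 19 genes of the list 3 rose and 2 fell. The falls numbered 1 without penicillin high-fat 3. Among all genes tested 6.43% rose and 1.89% fell.

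Genes of the PPAR alpha and fatty acid oxidation list rose in 14 of 30 cases (6.43% over all genes tested) and none fell. The list median was 0.35. The largest rises were signals and switches rather than enzymes of beta-oxidation. Fgf21, a hormone secreted by the liver in fasting and other metabolic stress, read 6.49, 5.91 and 6.59 on chow and 9.997, 7.95 and 8.63 on high-fat, a difference of 2.53 ± 0.39 (limma adjusted p = 0.00352). Pdk4, the kinase that shuts off pyruvate dehydrogenase, read 5.85, 5.04 and 5.32 on chow and 9.06, 7.10 and 7.61 on high-fat, a difference of 2.52 ± 0.41 (limma adjusted p = 0.00443). Penicillin high-fat 1 was the highest liver for both genes. Without that liver the differences were 1.96 for Fgf21 and 1.95 for Pdk4. Cyp4a14, a fatty acid omega-hydroxylase, rose by 1.49, Vnn1, a pantetheinase, by 1.43, and Ppargc1a, the coactivator PGC-1 alpha, by 1.17. Among the enzymes, the acyl-CoA thioesterase gene Acot2 rose by 0.87 ± 0.09, the ketone body dehydrogenase Bdh1 by 0.60 ± 0.07 and the acyl-CoA dehydrogenases Acadm and Acadl by 0.40 and 0.37. Cpt1a, the gate of mitochondrial fatty acid entry, differed by 0.06 (limma adjusted p = 0.77), and Ppara itself by 0.08. The count was 8 without penicillin high-fat 1 and 9 with the 3 arrays of low 18S signal left out. Of 28 oxidative phosphorylation genes only Sdhd rose (0.27, limma adjusted p = 0.0498), where 6.43% of all genes tested rose. Sdhd no longer passed in 11 of the 12 fits that left out 1 array (all but that without control chow 3).

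Of 19 carbohydrate genes 6 rose and none fell (median 0.32): Ppp1r3g, the glycogen branching enzyme Gbe1 (0.81), Pklr, fructokinase Khk (0.53), pyruvate carboxylase Pcx (0.44) and the glucokinase regulator Gckr (0.35), which passed in 2 of the 12 fits that left out 1 array. Khk read 12.31, 12.19 and 12.16 on chow and 12.75, 12.72 and 12.79 on high-fat, so a small difference stood well clear of the spread (0.53 ± 0.07, limma adjusted p = 0.00179). Among 18 genes of insulin signalling and the IGF axis, only Igfbp3 rose (by 1.02) and only Igfbp2 fell (by 0.65). Over all genes tested 6.43% rose and 1.89% fell. Leaving out penicillin chow 1 made the counts of the IGF list 2 higher and 2 lower. Of 29 genes of the urea cycle and amino acid catabolism, Cps1 and Nags, the first enzyme of the urea cycle and the maker of its activator, fell by 0.40 and 0.41. The count was 1 without penicillin chow 1 and 0 without penicillin high-fat 1.

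Male-biased genes fell and female-biased genes rose in these male livers. Of 13 male-biased genes tested, 9 fell and none rose, with a median of -0.72. Of 12 female-biased genes 6 rose and none fell, with a median of 0.60. Among all genes tested 1.89% fell and 6.43% rose. Beside Hsd3b5 and Ugt2b38, the male-biased genes that fell were Cyp7b1, an oxysterol 7 alpha-hydroxylase (13.38, 13.37 and 13.51 on chow against 11.90, 12.04 and 11.91 on high-fat), Cyp4a12a (-1.33), Susd4 (-1.20), Nat8 (-0.72), Nudt7 (-0.72), Slco1a1 (-0.65) and Cyp2d9 (-0.36). Cyp7b1 fell by 1.47 ± 0.11 (limma adjusted p = 2.5e-05). The female-biased genes that rose were Cyp2b9, Hao2, Slc22a27, the peroxisomal transporter Abcd2 (1.98 ± 0.41), the steroid 17 alpha-hydroxylase Cyp17a1 (1.72 ± 0.26) and the nuclear factor Tox (0.56). Not all members took part: the female-biased Cux2 differed by -0.03 and Cyp3a44 by -0.39, and the male-biased Elovl3 by 0.44, none of which passed. The female-biased count was 5 in every fit that left out 1 array. The male-biased count was 5 without penicillin high-fat 1, the liver in which Hsd3b5 and Ugt2b38 were lowest. It was 6 with only the 6 penicillin arrays fitted. Of 12 genes of the growth hormone and STAT5 axis, Lifr alone fell and none rose, and Igf1 differed by -0.22 (limma adjusted p = 0.10) and Bcl6 by -1.32 with overlapping groups. Leaving out penicillin chow 1 made the count of falls 2. Of 24 bile acid genes, Cyp7b1 and Slco1a1 were the 2 that fell (against 1.89% of all genes tested), with a list median of 0.01. The count was 4 without penicillin chow 1, and 1 gene rose without penicillin high-fat 2.

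Many targets of the xenobiotic receptors were lower on the high-fat diet. Of 18 genes of the CAR, PXR and AhR list, which includes a receptor gene, 9 were lower and 1 was higher. The list median was -0.32, and 1.89% of all genes tested fell. The number lower was 7 without penicillin high-fat 1 and 6 with only the 6 penicillin arrays fitted. Cyp1a2, the AhR-linked P450 of pericentral hepatocytes, read 13.14, 13.33 and 13.22 on chow and 11.67, 11.65 and 11.72 on high-fat, and fell by 1.55 ± 0.09 (limma adjusted p = 3.88e-06). Cyp2b10 read 8.64, 7.85 and 7.73 on chow and 6.53, 6.49 and 6.66 on high-fat, and fell by 1.51 ± 0.22 (limma adjusted p = 0.00268), and its other probe sets differed by -2.62 and -2.68. The high-fat livers were tight and low in both genes. Members of the Cyp2c family also fell, 5 in all, led by Cyp2c54 (-1.75 ± 0.32) and Cyp2c55 (-1.40 ± 0.27), as did Ces2a (-1.68 ± 0.19) and, by 0.38, Cyp3a11, the main PXR target. The 1 higher gene of the list was the receptor gene Nr1i2 (PXR), which rose by 0.42. Nr1i2 no longer passed without penicillin chow 2, chow 3, high-fat 1 or high-fat 3, while Nr1i3 (CAR) differed by -0.06. Of 27 NRF2 targets and glutathione transferases, only Nqo1 (0.73) and Mgst3 (1.11) rose, where 6.43% of all genes tested rose. A dimmer probe set of Mgst3 (mean 4.97) differed by 0.18. The count of rises in the list was 4 without penicillin chow 1 and 4 without penicillin high-fat 2. Without control chow 3 or penicillin high-fat 2, 2 genes of the list fell, and 1 fell without control chow 2 or control high-fat 3.

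**Figure D3:**
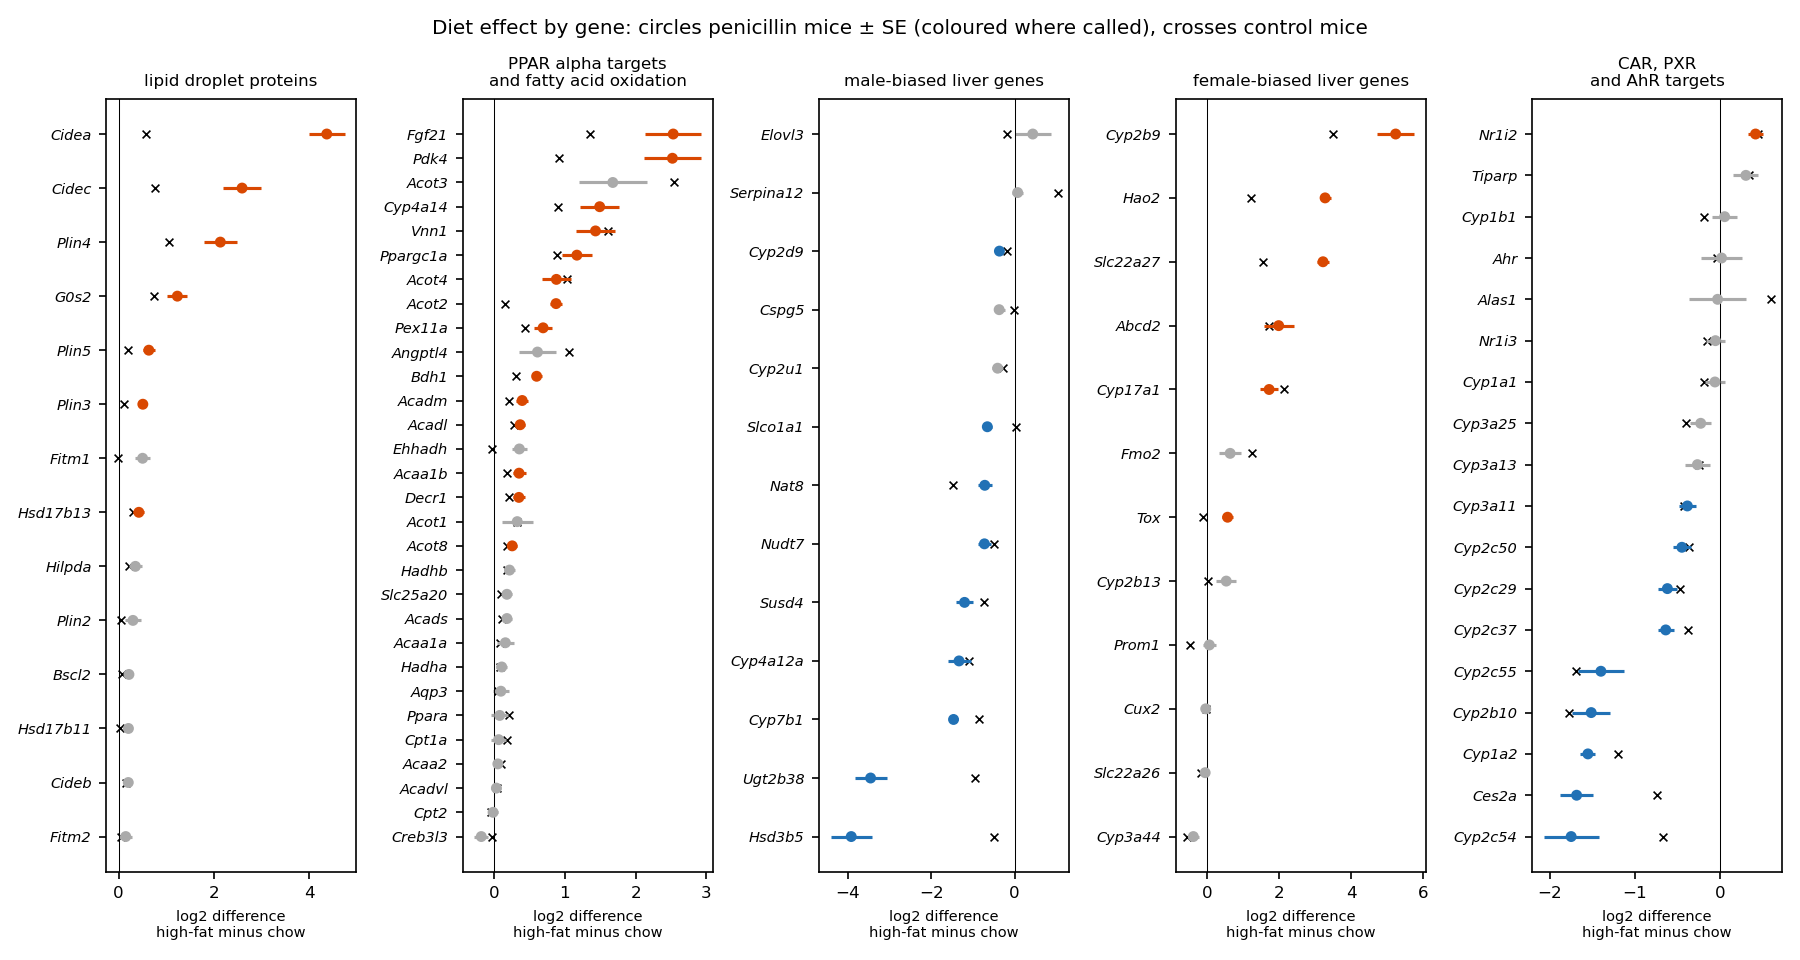
Log2 difference, high-fat minus chow (horizontal axes), for each tested gene of 5 lists. Circles with SE are penicillin-treated mice, orange where the gene rose, blue where it fell and grey where it did not pass, and crosses are control mice. Male-biased genes extend to -3.92 (Hsd3b5) and female-biased genes to 5.23 (Cyp2b9).

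Markers of non-parenchymal cells were higher on the high-fat diet. In bulk liver RNA, more cells of a type and more RNA of these genes per cell cannot be told apart. Of 20 macrophage and Kupffer cell markers, 13 rose and none fell, with a median of 0.79, where 6.43% of all genes tested rose. Adgre1, which encodes a surface receptor of tissue macrophages, read 7.67, 7.25 and 7.03 on chow and 8.77, 8.53 and 7.93 on high-fat (difference 1.09 ± 0.20, limma adjusted p = 0.00815). Cd68, a lysosomal marker of macrophages, rose by 1.03, the Kupffer cell genes Cd5l, Vsig4 and Clec4f by 0.95, 0.87 and 0.64, and the complement genes C1qa, C1qb and C1qc by 0.80, 0.82 and 0.77. The list's mean level on each array, relative to the mean of the 12 arrays, was -0.11, -0.60 and -0.79 in penicillin chow and 0.46, 0.34 and -0.09 in penicillin high-fat. Penicillin chow 1 and penicillin high-fat 3 were therefore nearly level, and the lowest values were those of the chow livers with low 18S signal. In the control mice the same score was -0.18, -0.10 and -0.06 on chow and 0.39, 0.43 and 0.31 on high-fat. The count of 13 was 5 without penicillin chow 3, 5 without penicillin high-fat 1 and 0 without the 3 arrays of low 18S signal, where 1 chow liver and 2 high-fat livers remain. Adding 18S signal to the fit as a covariate gave 10, and fitting only the 6 penicillin arrays gave 1. Of 10 markers of lipid-associated macrophages, Lgals3 (1.08), Ctss (0.66) and Cd9 (0.63) rose, and the count was 0 without penicillin chow 2, chow 3 or high-fat 1 and 1 without penicillin high-fat 3 or without any 1 control array. Without penicillin high-fat 2, 1 gene of that list fell.

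Of 17 sinusoidal endothelial markers 7 rose and none fell (median 0.41), where 6.43% of all genes tested rose. When 1 array was left out, 5 to 8 of these markers rose. Clec14a, an endothelial lectin, rose by 1.02 ± 0.12 and Sox18, an endothelial transcription factor, by 0.77 ± 0.08 (limma adjusted p = 2.66e-04). Sox18 read 6.75, 6.78 and 6.70 on chow and 7.62, 7.53 and 7.38 on high-fat, without overlap. Lyve1, a hyaluronan receptor of sinusoids, differed by 1.80 ± 0.34. Without the 3 arrays of low 18S signal 2 of the 17 rose.

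Matrix genes rose as well: of 21 stellate cell and matrix genes, 7 were higher and none lower. All 21 differences were positive, and the median was 0.46. For this and the next marker lists, the shares over all genes tested were 6.43% higher and 1.89% lower. Col3a1, a fibrillar collagen gene, read 7.73, 8.24 and 8.48 on chow and 9.88, 9.45 and 9.82 on high-fat, a difference of 1.57 ± 0.17 (limma adjusted p = 5.78e-04). Col1a2 rose by 0.94, the proteoglycans Lum and Dcn by 1.01 and 0.58, Col4a1 by 0.75, Sparc by 0.69 and Reln by 0.49. The other probe sets of Sparc differed by 0.69 (mean 8.10) and -0.20 (mean 6.38). The count was 4 without penicillin chow 2 and 6 without the 3 arrays of low 18S signal. Of 7 MHC class II genes, H2-Ab1 (0.74) and H2-DMa (0.71) rose, and the count was 0 without any 1 of control chow 1, control chow 2, control high-fat 1, penicillin chow 2, penicillin chow 3, penicillin high-fat 1 or penicillin high-fat 2. Another probe set of H2-DMa (mean 6.48) differed by 0.10. None of the markers of cholangiocytes (5 tested), B cells (7), T and NK cells (10), neutrophils (6) or erythroid cells (3) passed, though 1 cholangiocyte marker rose without penicillin high-fat 1. The adipocyte list gave 2 higher (Cidec and Fabp4) and 1 lower (Lipe) of 5, and its defining markers Adipoq and Lep stayed under the filter on every array. Of 7 pancreatic acinar markers Cela1 fell by 0.58, and it passed in 3 of the 12 fits that left out 1 array (those without penicillin high-fat 2, penicillin chow 2 or control chow 1). Of 13 hepatocyte markers, Cps1 and Cyp2f2 fell (by 0.40 and 0.48) and the list median was -0.02. Cps1 did not pass without penicillin high-fat 1.

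**Figure D4:**
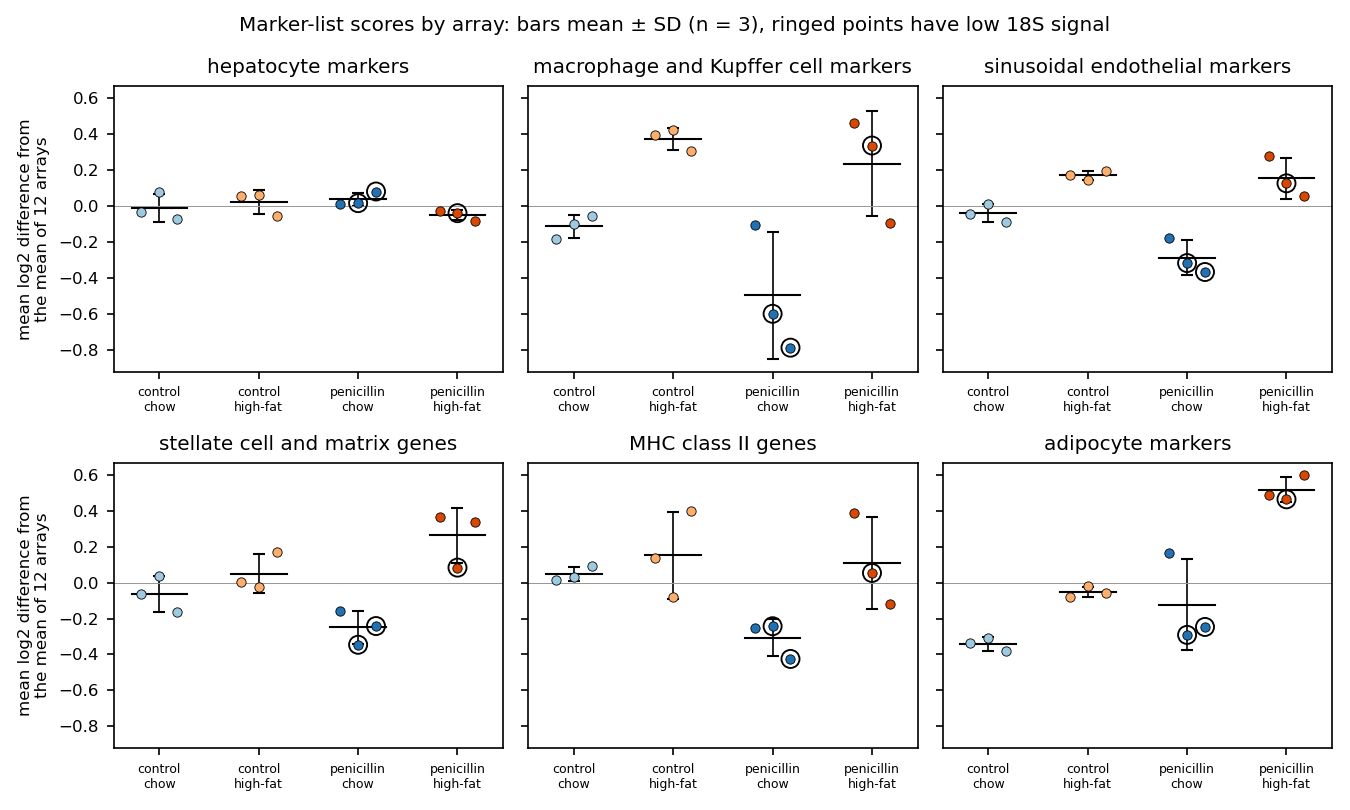
Mean log2 difference of each marker list from its mean over the 12 arrays (vertical axes), 1 point per mouse with the mean and SD of 3 mice, in the 4 groups. Ringed points are the 3 arrays of low 18S signal, and the macrophage score runs from -0.79 to -0.11 in penicillin chow and from -0.09 to 0.46 in penicillin high-fat.

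Among stress and inflammatory genes the counts were small, and over all genes tested 6.43% rose and 1.89% fell. Of 32 acute-phase genes only Hamp (hepcidin, -0.87 ± 0.18) fell and none rose, with a median of -0.22. Penicillin chow 1 read 9.14 for S100a8 and 9.29 for S100a9, against 6.55 or less in the other penicillin chow livers. Without penicillin chow 1, 2 acute-phase genes rose, 1 fell and the median was 0.03. With the 3 arrays of low 18S signal left out, so that penicillin chow 1 was the only chow liver, 12 acute-phase genes fell. Hamp did not pass without penicillin chow 3 or without penicillin high-fat 1. Among 13 iron handling genes, its paralog Hamp2 rose by 1.30 ± 0.28, and did not pass without penicillin chow 3, while 2 genes of that list rose without penicillin high-fat 3. A dimmer probe set of Hamp2 (mean 4.96) differed by -0.25, so the rise is not settled for the gene. Of 15 inflammatory genes the adhesion molecule Vcam1 (1.24) and the chemokine Cxcl9 (1.12) rose. The other probe sets of Vcam1 differed by 0.07 and 0.70, so the size of its rise depends on the probe set. The count was 1 without any 1 of control chow 1, control chow 2, control high-fat 1, penicillin chow 3, penicillin high-fat 1 or penicillin high-fat 2. Of 25 interferon-stimulated genes 3 rose and 1 fell. Ifi27l2a, an interferon-induced gene, read 6.93, 7.02 and 6.94 on chow and 8.25, 8.13 and 7.99 on high-fat, a difference of 1.16 ± 0.09 (limma adjusted p = 4.92e-05). Gbp3 (0.83) and Ifit2 (0.67) also rose, but the count of rises was 1 without penicillin chow 2, high-fat 1 or high-fat 2. Stat2 fell by 0.36 and passed in 4 of the 12 fits that left out 1 array. Another probe set of Stat2 (mean 6.67) differed by -0.06.

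Of 17 cell cycle genes, Cdkn1a (1.66 ± 0.32), Mcm6 (0.80), Ccnb2 (0.73) and Mki67 (0.58) rose. Mki67, a marker of cycling cells, was dim, at 4.57 to 4.63 on chow and 5.04 to 5.30 on high-fat, and Cdkn1a encodes the inhibitor p21. The count was 2 without penicillin high-fat 1. Of 20 genes of ATF4 and ER stress only Nupr1, a stress-induced nuclear protein gene, rose (by 0.93), against 6.43% of all genes tested. The count was 2 without penicillin chow 1 or without control high-fat 3. Without penicillin high-fat 1 or control chow 3, 1 gene of that list fell. None of 16 heat shock genes and none of 18 clock genes passed with limma (at most 1 of each list when 1 array was left out: a heat shock gene without control high-fat 3, and a clock gene without control chow 2 or without control high-fat 1). The clock gene Dbp read 11.34, 12.18 and 12.41 on chow and 8.97, 11.31 and 11.28 on high-fat, and Arntl (Bmal1) read 5.55, 5.84 and 5.17 on chow and 7.93, 6.38 and 6.71 on high-fat. Penicillin high-fat 1 was the extreme liver for both. With the clock score as a covariate 491 genes passed over the whole array.

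Leaving out the 3 arrays of low 18S signal, so that 1 chow and 2 high-fat livers of the penicillin-treated mice remained, moved other lists as well. Fewer male-biased genes and fewer CAR, PXR and AhR targets fell in that fit, with medians of -0.81 and -0.40. The number of genes that rose became 3 for glycerolipid synthesis, 3 for de novo lipogenesis, 1 for lipolysis, 1 for the cell cycle (median 0.05, against 0.22 with all arrays), 1 for interferon-stimulated genes and 1 for adipocyte markers. It became 0 for lipid-associated macrophages, MHC class II, oxidative phosphorylation and inflammatory genes, and Nr1i2 did not pass. More genes rose than with all arrays in 3 lists: 4 for bile acids, 4 for NRF2 targets and 2 for the IGF axis. The number that fell became 1 for bile acids, 1 for apolipoproteins, 1 for hepatocyte markers, and 0 for the IGF axis, cholesterol, interferon-stimulated and acinar genes. In lists with no fall before, 3 inflammatory genes, 2 fatty acid uptake genes, 2 NRF2 targets, 2 neutrophil markers, 1 heat shock gene and 1 lipid-associated macrophage marker fell.

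Beyond the lists, Rcan2, a calcineurin regulator, and Rtn4, a reticulon of the endoplasmic reticulum, were among the 10 smallest p-values. Rcan2 read 6.75, 7.02 and 7.05 on chow and 8.41, 8.40 and 8.42 on high-fat (1.47 ± 0.10, limma adjusted p = 2.15e-05), and a dimmer probe set of Rcan2 (mean 4.55) differed by -0.02, so the rise is not settled for the gene. Rtn4 read 11.18, 11.22 and 11.30 on chow and 12.11, 12.18 and 12.13 on high-fat (0.90 ± 0.07, limma adjusted p = 5.25e-05). Of its other probe sets, the brightest differed by 1.10 and the rest, all dim, by -0.15 to 0.31. In both genes the 3 high-fat livers lay close together.

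The diet effect in penicillin-treated mice was then set beside that in the control mice, with which it shares no array, though all 12 arrays gave 1 estimate of the spread. In control mice 124 genes changed (0.899%), 90 higher (0.653%) and 34 lower (0.247%). Of these, 68 rose and 17 fell in both, none changed in opposite directions, and the overlap was 68.5% of the control calls and 7.41% of the penicillin calls. Of the 1147 genes changed in penicillin-treated mice, 1079 (94.1%) differed in the same direction in control mice, against 70.7% of all genes tested. The choice of these genes in penicillin-treated mice partly sets their medians there. The genes that rose had a median of 0.56 in penicillin-treated and 0.25 in control mice, and those that fell -0.47 and -0.24. Genes chosen in control mice as higher had a median of 0.77 there and 0.73 in penicillin-treated mice. Across all genes the effects correlated with r = 0.663 (Spearman 0.580), as a description across genes, which are not independent.

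A larger count in one treatment is no test of a difference, and the difference itself was tested as the penicillin diet effect minus the control diet effect. It passed for 6 genes (limma, 0.0435% of those tested), 5 with a higher effect in penicillin-treated mice (0.0363%) and 1 with a lower effect (0.00725%). At an unadjusted p under 0.05 there were 842 (6.11%). Hao2 rose by 3.27 in penicillin-treated and by 1.22 in control mice, a difference of 2.06 (limma adjusted p = 0.0114). Cd36 rose by 1.81 against 0.60, a difference of 1.21, and Lifr fell by 2.0 against 0.78, a difference of -1.22 (limma adjusted p = 0.0323 for both). On the probe sets used, the diet moved both treatments the same way for these 3 genes. The other probe sets of Lifr differed by -0.54 and -0.58 in penicillin-treated mice and by -0.27 and 0.14 in control mice. With the mean of all probe sets of a gene, 6 genes passed, all with a higher effect in penicillin-treated mice, so Lifr was not among them.

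Cidea rose by 4.36 in penicillin-treated mice and differed by 0.56 (limma adjusted p = 0.51) in control mice, a difference of 3.80 (limma adjusted p = 0.0389). Control high-fat mice read from 5.41 to 5.59, and the lowest penicillin high-fat mouse read 8.14. Slc22a27 (3.22 against 1.55) and Ifi27l2a (1.16 against 0.19) were the other genes, with differences of 1.66 and 0.97 (limma adjusted p = 0.0418 and 0.0323). These calls were thin. None of the 6 passed in all 12 fits that left out 1 array: Hao2 passed in 9, Cd36 in 6, Lifr in 4, Slc22a27 and Ifi27l2a in 3 and Cidea in 2. The number that passed was 0 without penicillin high-fat 1, 0 without penicillin chow 3 and 0 without control chow 2.

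Several genes with large changes in penicillin-treated mice did not pass this test. Hsd3b5 differed by -3.92 in penicillin-treated and by -0.49 in control mice (difference -3.43, limma adjusted p = 0.192). After the 6 genes called, the smallest p-values belonged to Pigp, a subunit of GPI anchor synthesis (difference 0.81, limma adjusted p = 0.066), then Col3a1 (1.47), Sox18 (0.64) and Enc1 (1.04), all with a limma adjusted p of 0.108. For other leading genes the values side by side were as follows, none with a called difference. Cyp1a2 fell by 1.55 and 1.19, Rgs16 rose by 3.11 and 2.29, Khk rose by 0.53 and 0.54, and Cyp2b10 fell by 1.51 and 1.77. By list, the median of the lipid droplet genes was 0.46 in penicillin-treated and 0.17 in control mice, that of the stellate cell and matrix genes 0.46 and 0.09, and that of the male-biased genes -0.72 and -0.49. That of the female-biased genes was 0.60 and 0.62, although 9 of the 12 differed more upward in penicillin-treated mice and the median of the gene-by-gene difference was 0.38. Of the 6 genes with a called difference, Hao2 and Slc22a27 are in that list. The median of the CAR, PXR and AhR list was -0.32 and -0.37. The median over all genes tested was near 0 in both. The mean stellate cell and matrix score on chow was -0.25 in penicillin-treated and -0.06 in control mice. On high-fat it was 0.26 and 0.05, so the treatments differed on both diets.

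**Figure D5:**
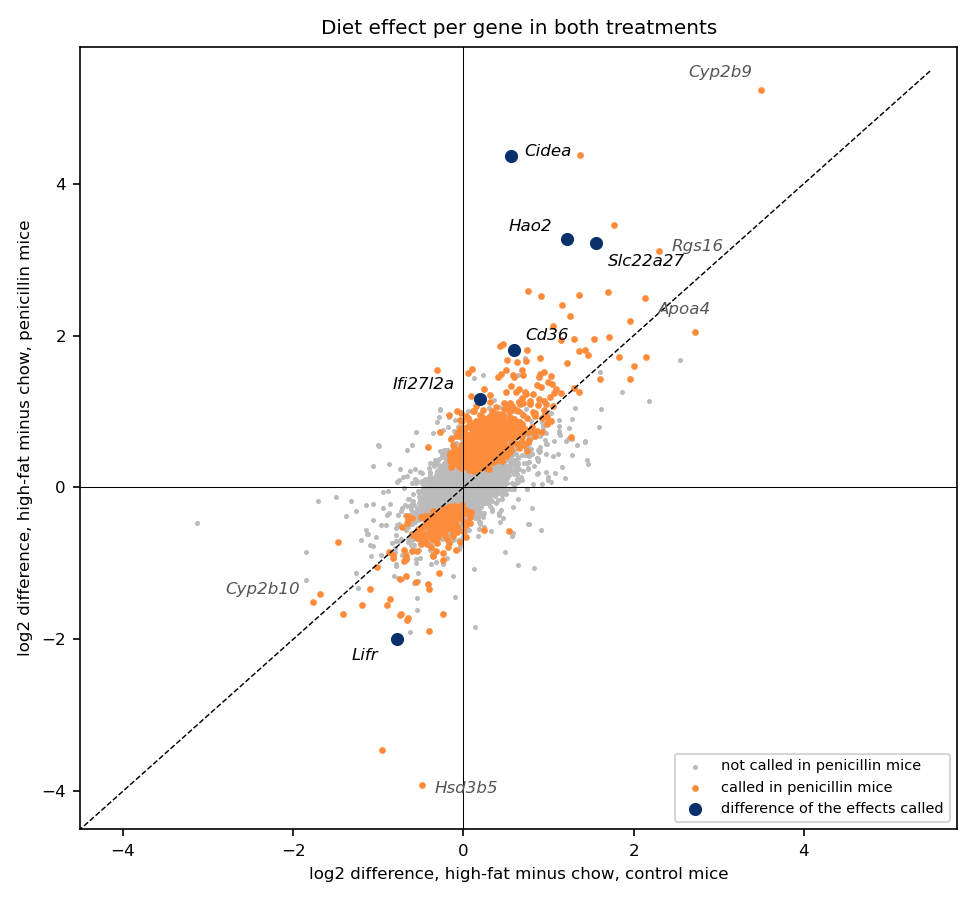
Log2 difference, high-fat minus chow, in control mice (horizontal axis) and in penicillin-treated mice (vertical axis), 1 point per gene for 13788 genes, with the line of equal effects dashed. Orange points changed in penicillin-treated mice, and the 6 dark points are the genes whose effects differed between treatments, from Lifr at -2.0 against -0.78 to Cidea at 4.36 against 0.56.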

How the data were processed

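Liver RNA of 12 mice was labelled with biotin and hybridised to 1 Affymetrix array each. The authors deposited log2 expression values, for which the submitters' processing notes name RMA and the affy package without versions. Array medians ranged from 5.52 to 5.59. Probe sets were named from the platform annotation: of 45101, 34945 had 1 gene symbol, 932 several and 9160 none, and those without a single symbol and the 64 control probe sets were not tested as genes. Each gene took its probe set of highest mean over the 12 arrays. limma 3.58.1 (R 4.3.3) was fitted to the 4 group means of all 12 arrays, with 8 residual degrees of freedom, eBayes, and Benjamini-Hochberg adjustment over the 13788 genes tested. A gene was called at an adjusted p under 0.05. The median SE was 0.10 for the diet difference and 0.15 for the difference of diet effects, and 3 mice per group limit the precision. On simulated data for the diet contrast in penicillin-treated mice with 13788 genes, the fit recovered 60% of the genes changed by 0.5 (log2), 96% by 1 and 100% by 2, with 9 false calls. In it 50 genes were changed at each size and every gene was drawn independently, so effects shared by many genes on 1 array were absent. Recovery and false calls under such shared effects were not tested. The genes and lists described were chosen with earlier results of these data known. Named were the 15 largest changes in each direction among called genes whose groups did not overlap, the 10 smallest p, up to 5 smallest p of each list, whether called or not, and for the difference of diet effects the 10 smallest p. Other genes named from a list are its called members, or members singled out after their values were seen. Some genes of the lists were not analysed here. Detection calls were not used. Alternatives changed the filter, probe set rule, normalization, samples, covariates, weights, variance prior and threshold, and left out arrays.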

Additional observations from a re-analysis of the deposited data

Results flagged for a closer look

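The diet effect differed between penicillin-treated and control mice, by a test of the difference itself, in 6 genes (limma, adjusted p under 0.05), and these are given here as values. The difference, penicillin minus control, was 2.06 for Hao2, 1.66 for Slc22a27, 1.21 for Cd36, 0.97 for Ifi27l2a and -1.22 for Lifr on the log2 scale. It was 3.80 for Cidea. Chow readings of Hao2, Slc22a27 and Cidea lay near or under the filter value of 5.0 in both treatments, where differences are compressed. The chow means of Hao2 were 4.95 in control and 4.45 in penicillin-treated mice, and the high-fat means 6.17 and 7.72. For Ifi27l2a the chow means were 7.64 and 6.96 and the high-fat means 7.84 and 8.12, so the treatments were farther apart on chow than on high-fat. No outlier test was run on single genes.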

How the results depend on the processing

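The 1147 genes changed by the diet became 482 with only the 6 penicillin arrays fitted, 491 with the clock score as a covariate, 652 without penicillin chow 1 and penicillin high-fat 1, 366 at an adjusted p under 0.01, 1933 under 0.10 and 488 with at least 1.5-fold change required. Leaving out 1 array gave 530 (without penicillin high-fat 1) to 1114 (without control chow 3). With the 3 arrays of low 18S signal left out 1112 passed, of which 490 were among the 1147. The 6 genes whose diet effect differed between treatments became 2 with the replicate block, 15 with array weights, 1 with 18S signal as a covariate, 2 with the clock score as a covariate, 24 without the 3 arrays of low 18S signal and 0 at an adjusted p under 0.01. Leaving out 1 array gave 0 (without penicillin high-fat 1, penicillin chow 3 or control chow 2) to 10 (without control chow 3). Whether same-numbered mice share more than a number, such as a cage, litter or processing run, is not given in the labels. Their deviations correlated at -0.04, 0.11 and 0.09 in penicillin-treated mice, and the replicate block left 1022 genes changed, 953 of them among the 1147. Of 113 named genes that changed, 82 passed in all 12 fits that left out 1 array and 55 under all 16 other settings, and none changed sign. The other 31 lost their call in at least 1 fit, 28 of them without penicillin high-fat 1, 21 without penicillin chow 3, 16 without penicillin chow 1, 16 without penicillin high-fat 2, 15 without penicillin chow 2, 13 without penicillin high-fat 3 and 6 to 11 without a control array, with adjusted p up to 0.169. The cause of these changes was not tested. Signal near the filter value limits the differences of dim genes.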
